A study of Mus musculus with 6 samples.

Results

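The genes described here are *Mcm2*, *Mcm3*, *Mcm4*, *Mcm5*, *Mcm6*, *Mcm7*, *Mcm10*, *Cdc6*, *Cdt1* and *Orc1*, which encode the replicative helicase and the factors that load it onto DNA. They were chosen by name as a functional group, with earlier results of these data known. They were matched to the deposited Ensembl IDs through the GENCODE mouse annotation. All 10 were found and all 10 passed the filter on low counts, among 15792 genes tested. RNA came from mouse submandibular salivary gland organoids (mSGOs), epithelial structures grown from dissociated gland cells of female C57BL/6 mice aged 8-12 weeks. Every organoid was untreated and not irradiated, and was cultured in Matrigel in WRY medium, which holds Wnt3a- and R-spondin1-conditioned medium, EGF, FGF2, insulin, dexamethasone and the kinase inhibitor Y27632. Cultures of 3 mice were harvested after 5 days and after 7 days, so the 6 libraries form 3 pairs, and day 7 against day 5 was the one contrast of the design. Each library was made from all cells of the culture together, and 3′-end sequencing counted reads at the ends of polyadenylated transcripts.

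A cell may start each replication origin only once per cycle. In G1 the origin recognition complex, with its subunit ORC1, binds DNA, CDC6 joins it, and CDT1 brings in the MCM2-7 ring, which is loaded around the double strand as an inactive helicase; this step is called licensing. In S phase kinases, CDC45 and the GINS complex turn the ring into the active CMG helicase with the help of MCM10, while geminin and regulated proteolysis of CDT1 and CDC6 prevent a second loading. Licensing genes are transcribed in cycling cells, largely under E2F factors, and are shut off in quiescent and differentiated cells, which makes MCM proteins widely used markers of proliferative capacity in epithelia.

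The total count in genes lay between 1918198 and 2837397 per library, and 3 counts, which a gene listed at 0 could still have, equal 1.04 to 1.51 CPM (counts scaled to a common library size by TMM). Reads outside genes or ambiguous between genes made up 13.7% to 14.4% of the day 5 libraries and 9.12% to 9.74% of the day 7 libraries. Transcripts of mitochondrially encoded proteins took 2.60% to 2.72% of counts at day 5, and 2.26%, 0.926% and 0.924% in mice 1, 2 and 3 at day 7. The day 7 libraries were less alike among themselves, with a chi-square per degree of freedom of 12.3 to 19.9 between pairs against 1.99 to 3.25 at day 5. Markers checked the labelled tissue. The 8 epithelial markers summed to 14434 to 18210 CPM at day 5 and 11545 to 15990 CPM at day 7, led by *Krt14* and *Krt5*. The 10 macrophage markers summed to 8.03 to 10.7 CPM and then 9.30 to 13.9 CPM with 7 of them at 0 in every library, although *Cd68* was past the threshold upward (1.00 to 5.27 CPM). The 8 endothelial markers summed to 10.8 to 12.4 and then 13.4 to 25.9 CPM, mostly *Egfl7*, with *Cdh5* and *Tek* at 0. The 8 fibroblast markers stayed under 2 CPM with *Col1a2*, *Col3a1*, *Lum* and *Dpt* at 0, and the 6 erythroid markers at or below 0.490 CPM. The 8 acinar markers summed to 6.03 to 12.3 and then 11.1 to 25.5 CPM, with *Bpifa2*, *Prol1* and *Lpo* at 0, so defining acinar markers of the gland were absent or low. The part of these levels in the results was not tested.

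Transcripts of the licensing genes were less abundant at day 7. Of the 10 genes, 7 fell past the threshold (edgeR adjusted p below 0.05, log2 fold change beyond 0.6 in size) and 0 rose. Without mouse 2 at day 5, or without mouse 2 at day 7, 4 passed, and without mouse 3 at day 7, 9 passed. Over all genes tested, 4.82% passed it downward, 7.22% upward and 12.0% in either direction. All 10 log2 fold changes were negative, with a median of -1.14, while the median over all genes tested was -0.01. Summed over the 10 genes, the level was 842, 907 and 839 CPM in mice 1, 2 and 3 at day 5 and 461, 338 and 532 CPM at day 7. The mean went from 863 ± 38.4 to 444 ± 97.9 CPM (SD, n = 3), a ratio of 0.514. In bulk RNA, fewer cells of a type and less RNA per cell cannot be told apart. For 9 of the 10 genes every day 7 library lay below every day 5 library, which held for 15.5% of all genes tested in that direction. The exception was *Mcm7*.

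**Figure D1:**
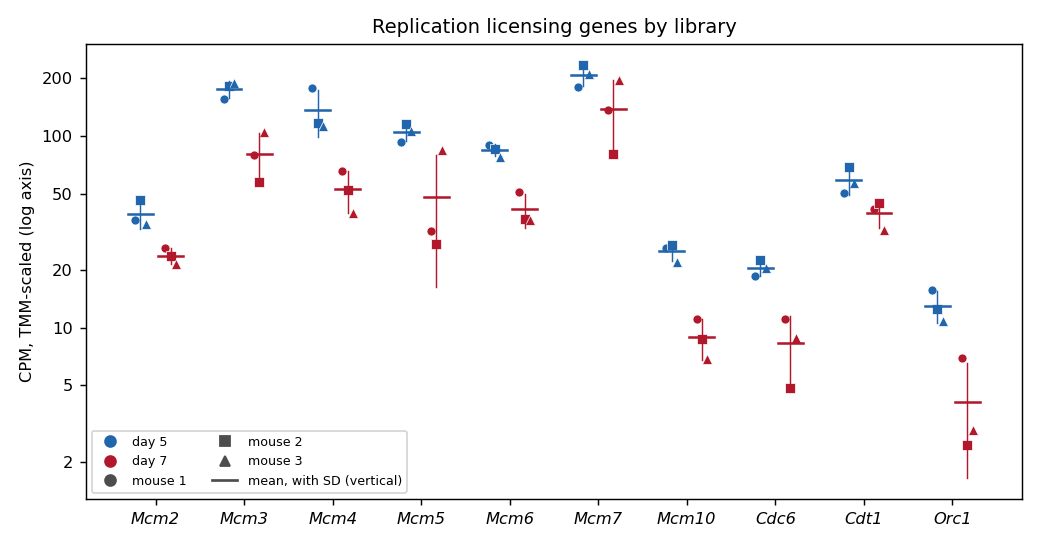
Level of each licensing gene in the 6 libraries, in TMM-scaled CPM on a log axis. Blue is day 5, red is day 7, the symbol gives the mouse, the horizontal line is the mean and the vertical line spans 1 SD on each side. Day 7 points lie below day 5 points for every gene but *Mcm7*, where mouse 3 at day 7 (195 CPM) stands above mouse 1 at day 5 (180 CPM).

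The helicase ring comes first. MCM2, MCM3, MCM4, MCM5, MCM6 and MCM7 are related ATPases that form one ring with a single copy of each. As a group, 4 of the 6 genes fell, and the median log2 fold change was -1.08. *Mcm4* (ENSMUSG00000022673; GRCm39 chromosome 16, 15440211 to 15455264, minus strand) encodes one of the ring's tightly associated core subunits with MCM6 and MCM7. It stood at 178, 116 and 112 CPM in mice 1, 2 and 3 at day 5 and at 65.6, 52.4 and 39.7 CPM at day 7. Mouse 1 was the highest on both days and the days did not overlap. The fall was 2.57-fold (log2 fold change -1.36 ± 0.24 SE, edgeR adjusted p = 0.000848), and *Mcm4* stayed past the threshold under every alternative run.

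*Mcm6* (ENSMUSG00000026355; chromosome 1, 128259311 to 128287516, minus strand) was at 89.9, 85.4 and 77.8 CPM at day 5 and 51.0, 36.8 and 36.2 CPM at day 7. It had the smallest spread of the group at day 5, with a coefficient of variation of 7.24%, and again no overlap. *Mcm6* fell 2.04-fold (-1.03 ± 0.21, edgeR adjusted p = 0.00353) and passed without any single library.

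*Mcm3* (ENSMUSG00000041859; chromosome 1, 20870791 to 20890536, minus strand), whose protein sits beside MCM5 in the ring, was at 155, 181 and 188 CPM at day 5 and 79.0, 57.3 and 104 CPM at day 7. Here mouse 3, the lowest of day 7 for *Mcm4* and *Mcm6*, was the highest. The fall was 2.19-fold (-1.13 ± 0.22, edgeR adjusted p = 0.00226) and held without any single library.

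*Mcm5* (ENSMUSG00000005410; chromosome 8, 75836140 to 75856231, plus strand), which with MCM2 forms the gate through which DNA enters the ring, was the least even of the 4. Its levels were 93.2, 114 and 106 CPM at day 5 and 31.8, 27.4 and 84.2 CPM at day 7. Mouse 3 at day 7 lay close under the day 5 values, far above the other two mice, and the day 7 coefficient of variation was 66.0% against 10.2% at day 5. *Mcm5* fell 2.21-fold over all 6 libraries (-1.15 ± 0.31, edgeR adjusted p = 0.0208). The call held in 2 of 6 fits that left out a library and was lost without any day 5 library (edgeR adjusted p = 0.0582, 0.123 and 0.0898 without mice 1, 2 and 3) or without mouse 2 at day 7 (0.136). With all 6 libraries it was also lost under filterByExpr (edgeR adjusted p = 0.0536), robust dispersion (0.106) and glmTreat (0.173). Without mouse 3 at day 7 the log2 fold change was -1.82.

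The remaining ring genes missed the threshold. *Mcm2* (ENSMUSG00000002870; chromosome 6, 88860452 to 88875762, minus strand), whose protein also binds histones, was at 36.3, 46.2 and 34.6 CPM at day 5 and 26.1, 23.6 and 21.5 CPM at day 7. The days did not overlap. The log2 fold change was -0.71 ± 0.24 (95% interval -1.17 to -0.25) with an edgeR adjusted p of 0.0571, and of 0.0481 with the mouse as a block. Without mouse 2 at day 5 it was -0.57 with an edgeR adjusted p of 0.266. *Mcm2* passed in 4 of 10 fits with all 6 libraries, and in 2 of 6 without a library.

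*Mcm7* (ENSMUSG00000029730; chromosome 5, 138162844 to 138170684, minus strand) was at 180, 233 and 210 CPM at day 5 and 137, 80.2 and 195 CPM at day 7. Mouse 2 was far below its day 5 level and mouse 3 close to it, so the days overlapped. The log2 fold change was -0.60 ± 0.25 (95% interval -1.09 to -0.11) with an edgeR adjusted p of 0.132. With the mouse as a block it was -0.67 with an edgeR adjusted p of 0.0322, and without mouse 3 at day 7 it was -0.94 with an edgeR adjusted p of 0.00389.

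The loading factors split in the same way. *Orc1* (ENSMUSG00000028587; chromosome 4, 108436540 to 108473245, plus strand), the ATPase subunit of the origin recognition complex that comes and goes with the cell cycle, was at 15.7, 12.6 and 10.8 CPM at day 5 and 6.90, 2.43 and 2.94 CPM at day 7. Those day 7 levels rest on 18, 7 and 6 counts. The fall of 3.13-fold (-1.65 ± 0.40, edgeR adjusted p = 0.00993) had the largest point estimate of the 10 genes and also the largest SE, and it missed the threshold in 3 of 6 fits without a library, those without mouse 1 or mouse 2 at day 5 and without mouse 2 at day 7.

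*Cdc6* (ENSMUSG00000017499; chromosome 11, 98798507 to 98814766, plus strand), the ATPase that completes the loading platform, was at 18.6, 22.6 and 20.5 CPM at day 5 and 11.1, 4.86 and 8.81 CPM at day 7. Mouse 2 was the highest at day 5 and the lowest at day 7. *Cdc6* fell 2.50-fold (-1.32 ± 0.32, edgeR adjusted p = 0.00978), and the call was lost without mouse 2 or mouse 3 at day 5 and without mouse 2 at day 7.

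*Cdt1* (ENSMUSG00000006585; chromosome 8, 123294703 to 123300293, plus strand), the chaperone that delivers the ring and that geminin binds, was at 50.3, 68.8 and 56.9 CPM at day 5 and 41.4, 44.8 and 32.3 CPM at day 7. The days did not overlap, but the distance was small. Its log2 fold change of -0.56 ± 0.22 (95% interval -0.99 to -0.13) had an edgeR adjusted p of 0.107, and *Cdt1* was the single gene of the 10 that passed under no alternative.

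MCM10 is not part of the ring and joins when the loaded helicase is activated. *Mcm10* (ENSMUSG00000026669; chromosome 2, 4994516 to 5017629, minus strand) was at 26.0, 27.1 and 22.0 CPM at day 5 and 11.1, 8.68 and 6.85 CPM at day 7. All 3 day 7 libraries were far below all day 5 libraries. It fell 2.78-fold (-1.47 ± 0.28, edgeR adjusted p = 0.00209) and, with *Mcm4*, stayed past the threshold under every alternative run.

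The day 7 cultures differed in which licensing genes were low. At day 7 mouse 3 had the highest level of *Mcm3*, *Mcm5* and *Mcm7* and the lowest of *Mcm2*, *Mcm4*, *Mcm6*, *Mcm10* and *Cdt1*. Its log2 CPM deviated from the day 7 mean by 0.99 for *Mcm5* and by 0.60 for *Mcm7*, and by -0.37 for *Mcm4*. Mouse 2 was the lowest for *Mcm3*, *Mcm5*, *Mcm7*, *Cdc6* and *Orc1*, with deviations of -0.44, -0.60, -0.68, -0.61 and -0.49. Mouse 1 was the highest for *Mcm2*, *Mcm4*, *Mcm6*, *Mcm10*, *Cdc6* and *Orc1*. At day 5 the deviations of the 10 genes lay within -0.24 and 0.42, the latter for *Mcm4* in mouse 1.

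**Figure D2:**
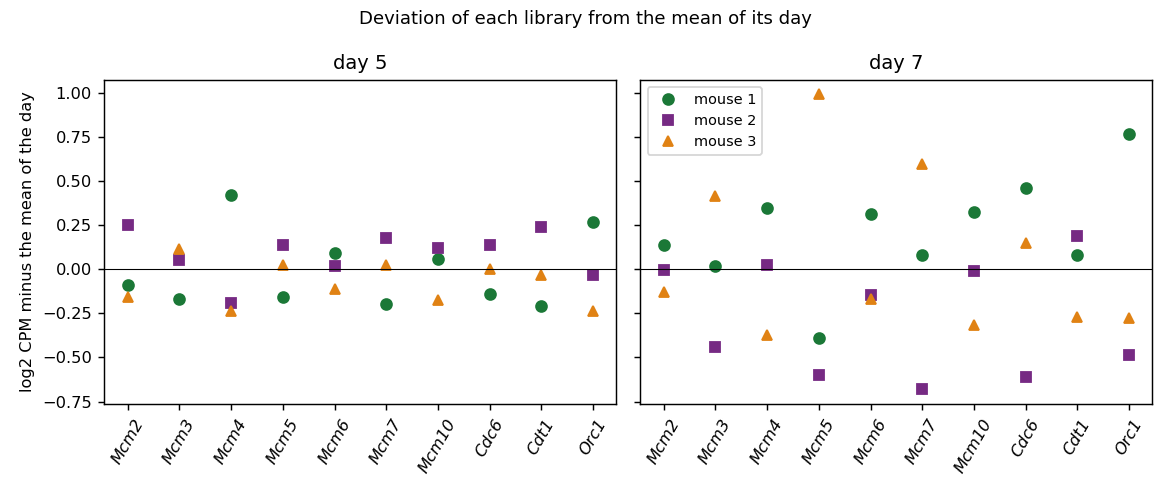
Log2 CPM (prior count 2) of each gene in a library minus the mean of the 3 libraries of that day, for day 5 (left) and day 7 (right), 1 symbol per mouse. Day 7 spreads from -0.68 (*Mcm7*, mouse 2) to 0.99 (*Mcm5*, mouse 3), day 5 from -0.24 to 0.42.

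Base composition of transcript ends moved with the libraries as well. Over 6164 genes, the deviation of a library from its day mean had a Spearman correlation with the GC content of the last 500 bases of the canonical transcript of -0.123, -0.207 and 0.232 in mice 1, 2 and 3 at day 7, and of -0.258, 0.165 and 0.141 at day 5. These are correlations across genes, which are not independent replicates. The last 500 bases of *Mcm7* hold 49.4% GC and those of *Mcm5* 43.8%, while those of *Mcm4*, which deviated the other way in mouse 3 at day 7, hold 32.8%. *Mcm2*, *Cdt1*, *Mcm6* and *Mcm10*, which were also lowest in mouse 3 at day 7, hold 46.6%, 46.4%, 46.2% and 42.6%, and *Mcm3*, which was highest there, holds 39.6%. The part of base composition in the spread was not tested.

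The balance of the ring subunits was described as the share of each gene in the summed counts of the 6 genes, which were 1774, 1546 and 2024 in mice 1, 2 and 3 at day 5 and 1017, 800 and 983 at day 7. Shares compare a gene with itself between libraries, since 3′-end counts of different genes are not on one length-corrected scale. *Mcm7* took 24.6%, 30.1% and 28.8% at day 5 and 35%, 28.9% and 40.6% at day 7. *Mcm4* took 24.3%, 14.9% and 15.4% and then 16.8%, 18.9% and 8.24%. *Mcm5* took 12.7%, 14.7% and 14.5% and then 8.16%, 9.88% and 17.5%. In mouse 3 at day 7 both *Mcm7* and *Mcm5* were at their highest share and *Mcm4* at its lowest. Mean shares of *Mcm6* were 11.3% ± 0.855 and 11.3% ± 3.26 (SD, n = 3), of *Mcm3* 23.4% ± 2.35 and 20.8% ± 0.733, and of *Mcm2* 5.22% ± 0.644 and 6.55% ± 2.02. For all 6 genes the ranges of the days overlapped. The mean share of *Mcm7* differed by 7.00 percentage points between days, higher in mice 1 and 3 and lower in mouse 2. That of *Mcm3* differed by -2.57 points and was lower at day 7 in all 3 mice (21.1% and 20.3%, 23.3% and 20.6%, 25.8% and 21.7%). The shares of a library sum to a fixed total, so a higher share of *Mcm7* goes with a lower joint share of the others. Counts of *Mcm7*, which enter every share, may include reads of *Cops6*, as described below. No test was run on the shares.

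**Figure D3:**
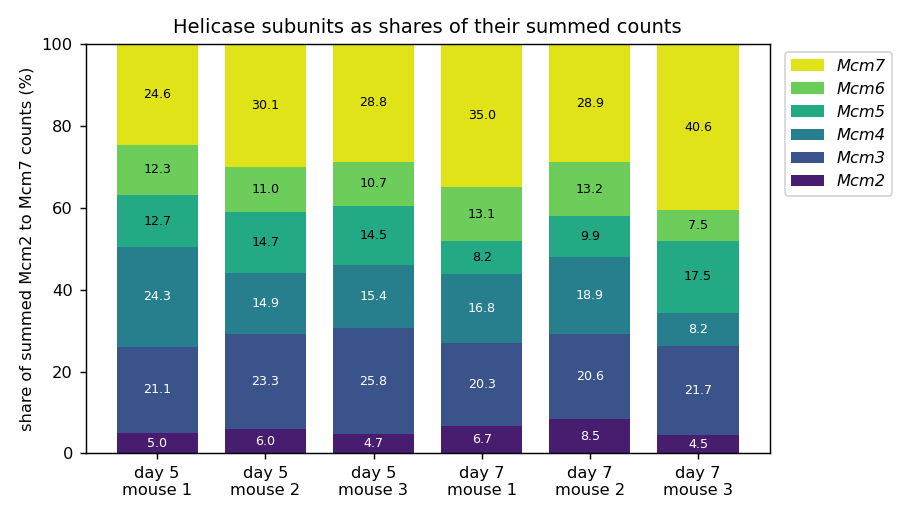
Stacked bars of the share (%) that each ring subunit gene took of the summed *Mcm2* to *Mcm7* counts, 1 bar per library. Each subunit's range at day 7 overlaps its range at day 5, and the day 7 bar of mouse 3 has the highest *Mcm7* share (40.6%) and the lowest *Mcm4* share (8.24%).

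The promoters of these genes were also read, and their part in the fall was not tested. RefSeq start windows of 300 bases (250 before and 50 after the start, GRCm38.p6) were found for 9 of the 10 genes, all but *Mcm4*, with a pair of windows for *Mcm7*, which made 10 windows. Each was searched on both strands for E2F words (TTCCCGC or TTCGCGC or TTGCCGC or TTGGCGC), the NF-Y word CCAAT, the CHR word TTTGAA found at many mitotic genes, and the GC box GGGCGG. E2F words can overlap each other on opposite strands and can overlap a CCAAT word, and both were counted. The windows with E2F words in at least 2 separate stretches follow, 5′ to 3′ on the strand of the gene, with the E2F words of either strand in capitals.
Mcm3, chr1:20820263-20820562, minus strand: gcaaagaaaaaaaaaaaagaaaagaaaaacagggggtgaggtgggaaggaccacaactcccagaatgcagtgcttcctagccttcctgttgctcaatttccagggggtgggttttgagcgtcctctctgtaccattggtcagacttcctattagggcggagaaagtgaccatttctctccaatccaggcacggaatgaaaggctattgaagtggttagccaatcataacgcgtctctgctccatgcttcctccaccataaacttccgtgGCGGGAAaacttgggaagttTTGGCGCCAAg
Mcm5, chr8:75109259-75109558, plus strand: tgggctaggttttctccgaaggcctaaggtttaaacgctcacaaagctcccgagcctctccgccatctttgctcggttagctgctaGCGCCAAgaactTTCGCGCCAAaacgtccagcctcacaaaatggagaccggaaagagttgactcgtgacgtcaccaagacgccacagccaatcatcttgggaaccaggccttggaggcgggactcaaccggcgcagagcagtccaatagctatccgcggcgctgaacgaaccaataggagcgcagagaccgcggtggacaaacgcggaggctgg
Mcm6, chr1:128359656-128359955, minus strand: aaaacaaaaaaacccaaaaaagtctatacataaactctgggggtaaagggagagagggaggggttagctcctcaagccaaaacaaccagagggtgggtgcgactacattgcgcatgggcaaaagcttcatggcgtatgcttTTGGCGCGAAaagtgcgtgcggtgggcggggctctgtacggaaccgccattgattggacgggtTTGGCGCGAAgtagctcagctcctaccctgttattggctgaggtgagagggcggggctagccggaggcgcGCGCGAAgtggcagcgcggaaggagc
Mcm7, chr5:138171834-138172133, minus strand: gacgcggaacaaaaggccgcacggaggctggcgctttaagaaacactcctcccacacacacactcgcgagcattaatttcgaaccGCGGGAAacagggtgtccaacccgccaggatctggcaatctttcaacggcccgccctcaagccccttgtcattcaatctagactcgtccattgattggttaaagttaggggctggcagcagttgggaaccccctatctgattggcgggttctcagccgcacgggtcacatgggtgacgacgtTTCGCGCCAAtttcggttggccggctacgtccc
Cdt1, chr8:122567765-122568064, plus strand: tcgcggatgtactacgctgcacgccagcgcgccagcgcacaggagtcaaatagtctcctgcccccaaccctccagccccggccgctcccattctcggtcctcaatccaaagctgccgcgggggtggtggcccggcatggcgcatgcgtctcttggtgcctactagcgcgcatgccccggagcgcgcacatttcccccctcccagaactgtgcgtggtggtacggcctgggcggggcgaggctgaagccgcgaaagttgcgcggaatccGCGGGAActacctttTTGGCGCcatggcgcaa

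In the windows of *Mcm5*, *Mcm6* and *Mcm7* an E2F word of one strand ran into one of the other, giving an unbroken stretch of 10 capitals, once in *Mcm5* and *Mcm7* and at a pair of places in *Mcm6*. The stretch of *Mcm3* that lies 40 bases after the start is a palindrome of the same length. *Cdc6* and *Orc1* held 1 E2F word each, and *Mcm2* and *Mcm10* none. In all, 8 of 10 windows (80%), covering 7 of 9 genes, held an E2F word. The share was 9.57% of 32841 RefSeq windows and 16.2% of those of genes tested. Among lists described below, E2F words were in 63.6% of RefSeq windows for CMG assembly and firing and in 60% for the replication fork. The share was 50% for the E2F and RB genes and 17.65% for the mitosis genes. Around the canonical GENCODE starts in GRCm39, 7 of the 10 genes held an E2F word, against 11.2% of 21757 windows and 15.2% of those of genes tested. There the shares for these lists, in that order, were 37.5%, 32%, 53.85% and 10%. CCAAT was in 8 of 10 windows, against 37.4% of all windows, 44% of those of the fork list and 88.2% of those of the mitosis list. The GC box was in 8 of 10, against 35.7% of all and 61.7% of those of genes tested. The CHR word was in 1 of 10 (*Mcm2*), against 17.9% of all and 12.1% of those of genes tested. Around the GENCODE starts, CCAAT was in 8 of 10 (39.9% of all windows). The GC box was there in 6 of 10 (42.5% of all and 57.9% of those of genes tested). The CHR word was there in 1 of 10 (17.1% of all and 13.8% of those of genes tested). These are matches of letters, and no binding was measured here. Of the 3 genes that missed the threshold, *Cdt1* held an E2F word in both sets of windows, *Mcm2* in neither and *Mcm7* in the RefSeq windows but not at its GENCODE start. *Mcm10*, which passed, had none in either set, but its RefSeq window ends in TTGGCG, the first letters of the E2F word TTGGCGC. The next base lies outside the window.

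**Figure D4:**
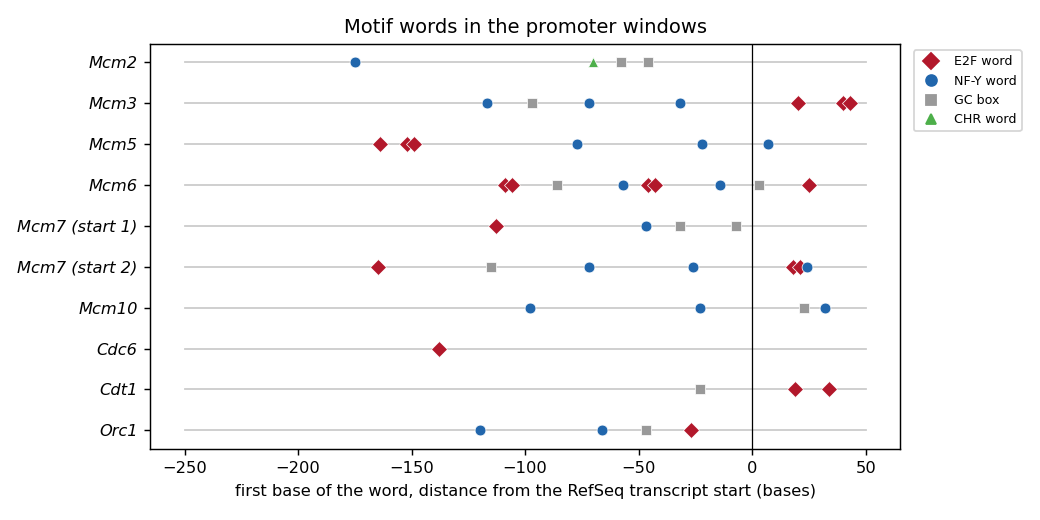
Position of each word in the 10 RefSeq promoter windows, as the distance in bases of its first base from the transcript start (vertical line), for windows that begin 250 bases before it and end 50 bases after it. Diamonds mark E2F words, circles the NF-Y word, squares the GC box and the triangle the CHR word. E2F words stand in 8 of 10 windows and on both sides of the start.

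Some of the genes share sequence with neighbours. The last exons of *Mcm7* and *Cops6*, a COP9 signalosome subunit on the opposite strand, overlap by 339 bases in the annotation, and 292 of the 50-base words in the last 500 bases of *Mcm7* are also in *Cops6* on the other strand. *Cops6* was at 73.4, 55.2 and 56.6 CPM at day 5 and 51.8, 47.6 and 69.0 CPM at day 7 (log2 fold change -0.14 ± 0.22, edgeR adjusted p = 0.739). Its day 7 order of mice was that of *Mcm7*, and also that of *Mcm3* and *Mcm5*, which do not overlap *Cops6*. Whether counting used the strand is not given in the sources used here, so the reads of the pair may not have been told apart, and *Mcm7* is the least certain of the 10 genes for that. *Mcm7* also overlaps *Ap4m1* on the opposite strand by 274 bases (-0.18 ± 0.29, edgeR adjusted p = 0.753) and hosts *Mir25* and *Mir93*, which had 0 counts in every library. It shares 103 of these words with the predicted locus *Gm5487*, and *Mcm6* shares 15 with *Gm15654*, which had 0 counts. *Prkdc*, whose start lies 489 bases from that of *Mcm4* on the other strand, was at -0.34 ± 0.40 on the log2 scale of change (edgeR adjusted p = 0.643). *Prpf38a*, whose start lies 55 bases from that of *Orc1* on the other strand, was at -0.26 ± 0.24 (edgeR adjusted p = 0.525). The lncRNA *Gm12743*, which overlaps *Orc1*, had 2 counts over all libraries. None of the neighbours with a test passed the threshold.

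Around these genes, 34 further genes in 4 lists (other origin recognition subunits, CMG assembly and firing, control of licensing, and MCM8/9 paralogs) were read from the same fit, of which 17 fell and 0 rose, with a median log2 fold change of -0.79. Among the other subunits of the origin recognition complex, 2 of 5 fell. *Orc6* went from 42.2 ± 9.17 to 20.1 ± 4.38 CPM (SD, n = 3; log2 fold change -1.06 ± 0.26, edgeR adjusted p = 0.0101). *Orc2* went from 68.7 ± 8.05 to 40.0 ± 9.76 CPM (-0.79 ± 0.22, edgeR adjusted p = 0.0276). The call of *Orc2* was lost in 5 of 6 fits without a library, all but that without mouse 3 at day 7 (edgeR adjusted p = 0.0579 to 0.153), and that of *Orc6* without mouse 1 or mouse 3 at day 5 (0.0734 and 0.0902). For *Orc3*, *Orc4* and *Orc5*, named after their values were seen, the log2 fold changes were 0.21, -0.50 and -0.33.

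Of 16 genes for CMG assembly and origin firing, 11 fell, with a median of -1.13. *Wdhd1*, whose protein ties the helicase to polymerase alpha, went from 38.3 ± 9.02 to 11.1 ± 4.91 CPM (-1.81 ± 0.32, edgeR adjusted p = 0.00111). *Tipin*, a fork protection factor, went from 164 ± 11.9 to 59.2 ± 28.9 CPM (-1.46 ± 0.27, edgeR adjusted p = 0.00169), and *Clspn*, the checkpoint mediator claspin, from 54.5 ± 2.74 to 23.6 ± 9.17 CPM (-1.22 ± 0.26, edgeR adjusted p = 0.00437). The 5 that missed the threshold, named after their values were seen, were *Gins3*, *Gins4*, *Mtbp*, *Recql4* and *Donson*. *Recql4* had 17 counts over the day 5 libraries and 3 over the day 7 libraries (2.29 and 0.454 CPM, edgeR adjusted p = 0.0769). The log2 fold change was -0.74 ± 0.36 for *Mtbp*, -0.51 ± 0.35 for *Donson*, -0.13 ± 0.36 for *Gins3* and 0.02 ± 0.26 for *Gins4*. Both *Gins3* and *Gins4* were highest at day 7 in mouse 3, at 27.9 and 43.6 CPM.

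The genes for control of licensing divided. Of 9 genes for its inhibition and for turnover of its factors, 4 fell and 5 did not pass, with a median of 0.00. *Gmnn*, which encodes geminin, the inhibitor of CDT1, went from 37.9 ± 3.85 to 18.1 ± 1.13 CPM (-1.06 ± 0.24, edgeR adjusted p = 0.00604), a call lost without mouse 2 or mouse 3 at day 5 (edgeR adjusted p = 0.0527 and 0.0546). *Skp2* (-1.72 ± 0.36, edgeR adjusted p = 0.00353) and *Cdc20* (-1.48 ± 0.30, edgeR adjusted p = 0.00278), substrate adaptors of ubiquitin ligases, also fell, as did *Dtl*, the adaptor that sends CDT1 to degradation in S phase (-0.95 ± 0.23, edgeR adjusted p = 0.0115), named after its value was seen. The others, named likewise, were *Mcmbp*, an MCM-binding protein, at 96.7 ± 5.90 and 96.9 ± 6.79 CPM (0.00 ± 0.19), the ligase subunits *Ddb1*, *Cul4a* and *Cul4b*, and *Fzr1*, with log2 fold changes between 0.05 and 0.17. In the paralog list (*Mcm8*, *Mcm9*, *Mcmdc2* and the MCM8/9 loader gene *Hrob*), which serves recombination rather than licensing, 0 of 4 passed. *Mcm9* was at 11.6 ± 3.13 and 6.71 ± 3.32 CPM (-0.77 ± 0.38, edgeR adjusted p = 0.213) and *Hrob* at 3.71 ± 0.540 and 2.94 ± 1.35 CPM (-0.39 ± 0.50, edgeR adjusted p = 0.673).

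**Figure D5:**
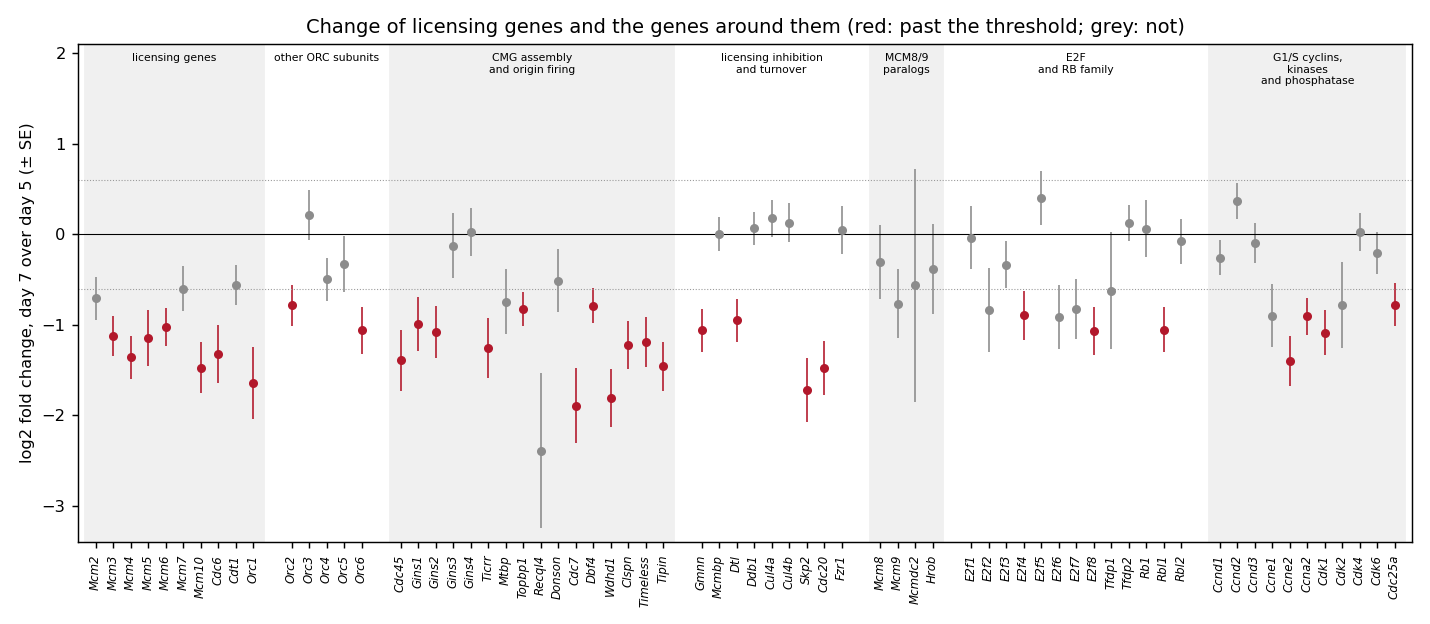
Log2 fold change of day 7 over day 5 with its SE for the 10 licensing genes (left) and 6 lists of surrounding genes, red where past the threshold and grey where not, with dotted lines at -0.6 and 0.6. No red point lies above 0, 11 of the 16 origin firing genes are red, and 0 of 4 genes of the MCM8/9 list are.

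The genes upstream were mixed. Of 24 E2F, RB-family and G1/S cyclin and kinase genes, 7 fell and 0 rose (median -0.70). Among 13 E2F and RB genes 3 fell. They were *Rbl1*, a pocket protein (-1.06 ± 0.25, edgeR adjusted p = 0.00832), *E2f8*, a repressor (-1.07 ± 0.26, edgeR adjusted p = 0.0115), and *E2f4*, which binds pocket proteins in quiescent cells (-0.89 ± 0.27, edgeR adjusted p = 0.0372). The call of *E2f4* was lost under DESeq2 (DESeq2 adjusted p = 0.0516) and without any day 5 library or mouse 2 at day 7 (edgeR adjusted p = 0.0635 to 0.147). That of *E2f8* was lost without mouse 1 or 2 at day 5 or mouse 2 at day 7, and that of *Rbl1* without mouse 1 at day 5 or mouse 2 at day 7. *E2f1*, the classical activator, was at 11.5 ± 1.12 and 11.2 ± 4.93 CPM (-0.04 ± 0.34, edgeR adjusted p = 0.99) and is named after its value was seen. Among 11 cyclin, kinase and phosphatase genes 4 fell, *Ccne2* (-1.40 ± 0.28, edgeR adjusted p = 0.00265), *Cdk1* (-1.09 ± 0.25, edgeR adjusted p = 0.00662), *Ccna2* (-0.91 ± 0.21, edgeR adjusted p = 0.00681) and, named after its value was seen, *Cdc25a* (-0.78 ± 0.23, edgeR adjusted p = 0.0369). The other 7, named after their values were seen, did not pass. Their log2 fold changes were -0.26, 0.36 and -0.10 for the D-type cyclin genes *Ccnd1*, *Ccnd2* and *Ccnd3*, -0.90 for *Ccne1* (edgeR adjusted p = 0.105), -0.78 for *Cdk2* (edgeR adjusted p = 0.315), 0.02 for *Cdk4* and -0.21 for *Cdk6*. The call of *Cdk1* was lost without mouse 2 of either day and that of *Ccna2* without mouse 2 at day 5.

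A pair of further lists served for comparison, 25 genes of the replication fork and nucleotide supply, of which 12 fell (median -0.84), and 20 mitosis genes, of which 17 fell (median -1.07). *Cdk1* and *Cdc20* stand in the mitosis list and in a list above. *Mki67*, the Ki-67 gene, went from 299, 280 and 229 CPM to 112, 66.7 and 125 CPM (-1.41 ± 0.23, edgeR adjusted p = 0.000459), and *Top2a* from 801, 846 and 739 CPM to 415, 300 and 447 CPM (-1.04 ± 0.20, edgeR adjusted p = 0.00184). Set against the summed fork genes, the summed licensing genes had a log2 ratio of -1.05 ± 0.029 (SD, n = 3) on day 5 and of -1.27 ± 0.052 on day 7, lower in all 3 day 7 libraries than in any day 5 library. The ratio to the mitosis genes was -1.79 ± 0.079 and -1.66 ± 0.17. Its days overlapped, and it was higher at day 7 in all 3 mice (-1.87 and -1.80, -1.81 and -1.71, -1.71 and -1.47). From the mean of log2 CPM in place of sums, that direction did not hold in every mouse. The ratio was then lower at day 7 in mouse 1 (-0.746 and -0.805) and mouse 2 (-0.712 and -0.735), and higher in mouse 3 (-0.666 and -0.613). No test was run on these ratios.

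Outside the group, 6101 genes averaged 20 CPM or more once IDs without a name and names of predicted loci or clones were left out. The 5 among them whose log2 CPM over the 6 libraries was most like the mean of the licensing genes were *Actl6a* (Pearson r = 0.999), *G6pdx* (0.997), *Spag5* (0.996), *N6amt1* (0.995) and *Cdca8* (0.995). The libraries form 2 days, so much of this likeness is the difference between days, and 206 of these 6101 genes had an r over 0.95. *Actl6a* was at 98.2, 100.4 and 97.3 CPM at day 5 and 72.1, 61.1 and 68 CPM at day 7. Likeness did not mean an equal fall. *Spag5*, a spindle protein gene, fell (-1.44 ± 0.28, edgeR adjusted p = 0.00195), as did *Cdca8*, a subunit of the chromosomal passenger complex (-0.84 ± 0.20, edgeR adjusted p = 0.0093, lost without any day 5 library or mouse 2 at day 7), while *Actl6a* (-0.56 ± 0.19, edgeR adjusted p = 0.0636), *G6pdx* (-0.50 ± 0.19, edgeR adjusted p = 0.101) and *N6amt1* (-0.59 ± 0.22, edgeR adjusted p = 0.0873) did not pass.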

How the data were processed

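RNA-seq libraries of mSGOs (3 mice, day 5 and day 7) were analysed from the count tables that the authors deposited, 1 whole-number count per Ensembl gene ID and library. Per the labels and the methods of the study, 3′-end libraries were made with the Lexogen QuantSeq kit from polyadenylated RNA and the submitters' processing notes name GRCm39 and edgeR. Aligner, annotation release, strandedness and the handling of multiply aligned reads are not given in the sources used here. Such choices could move counts of *Mcm7* and of other genes with overlapping or repeated ends. Entries that name no gene (9.12% to 14.4% of reads) entered neither library sizes nor tests. Of 47643 IDs, 43465 matched GENCODE vM39, the source of names, lengths and GRCm39 coordinates.

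The filter kept 15792 of 18687 genes with any count, those counted at least 1 time in 2 or more libraries. The fit used edgeR 4.0.16 (glmQLFit and glmQLFTest, R 4.3.3) with TMM and a single term for day. Two-sided p-values were adjusted by Benjamini-Hochberg over all genes tested. The threshold was an adjusted p below 0.05 and a log2 fold change beyond 0.6 in size. Of the genes tested, 4079 had an unadjusted p under 0.05. CPM used TMM-scaled library sizes. A prior count of 2 was added before log2 CPM. The SE was derived as the size of the log2 fold change divided by the square root of its F statistic. Intervals at 95% were 1.96 SE on each side, a normal approximation. They are narrower than limits from the F test would be, and are not adjusted for the number of genes.

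The titles tie each day 7 library to a day 5 library of that mouse, and the deviations of paired libraries from their day means correlated at 0.137, -0.100 and 0.162 over 8172 genes averaging 10 CPM or more. Mice are separate animals. All pairs of libraries of a day differed by more than sampling noise. Reads carry no molecular identifiers here, so floors of 3 counts (1.04 to 1.51 CPM) cover counting error only.

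The alternatives were other scalings (DESeq2 size factors, upper quartile, library totals), no filter or filterByExpr, DESeq2 1.42.0, robust dispersion, glmTreat, the mouse as a block, and leaving out each library. Named genes were all 10 licensing genes; up to 3 per surrounding list with the smallest p among those past the threshold, or 2 where none passed; *Mki67* and *Top2a*; overlapping or divergent neighbours within 1000 bases; and the 5 most alike genes. Genes outside this rule are marked as named after their values were seen. The licensing genes and all lists were chosen with earlier results of these data known.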

Additional observations from a re-analysis of the deposited data

How the results depend on the processing

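The 10 licensing genes kept a negative log2 fold change under every alternative run. The number past the threshold was 7, and 7 with DESeq2 size factors, DESeq2 or filterByExpr (which gained *Mcm2* and lost *Mcm5*), 8 with the upper quartile, library totals or no filter, 6 with robust dispersion, 2 with glmTreat against 0.6, and 4 to 9 without 1 library (4 without mouse 2 of either day, 9 without mouse 3 at day 7). Over all genes the count of 1901 went to 622 with glmTreat and to between 797 and 2576 without 1 library (797, 892, 890 and 1045 without mouse 2, 1 or 3 at day 5 and mouse 2 at day 7). The genes past the threshold in the 4 further lists, 17, went to 5 with glmTreat and to between 7 and 19 without 1 library, and the upstream genes, 7, to 1 and to between 2 and 10. With the mouse as a replicate block, 9 of the 10 genes and 2340 of all genes passed, and *Mcm2* and *Mcm7* were the licensing genes gained. Under library totals the median of all genes shifted to -0.10 and the downward share of calls went from 40.0% to 51.5%, and with glmTreat it was 26.7%. From the mean of log2 CPM in place of sums, the difference between days relative to the fork genes was -0.17 in place of -0.22 and relative to the mitosis genes -0.0102 in place of 0.13. Without 1 library the log2 fold change of *Prkdc* ranged from -0.67 to 0.13 and that of *Ap4m1* from -0.35 to 0.0072, neither past the threshold. Of the remaining values for named genes, 497 kept their side of the threshold, 54 lost it and 13 gained it. The causes were not tested. Levels of *Orc1*, *Cdc6* and *Mcm10* rest on 6 to 63 counts per library.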
